A study of Mus musculus with 8 samples.

Results

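Solute carriers are membrane transporters that move sugars, amino acids, fatty acids, ions, metals, nucleotides, vitamins and drugs across the plasma membrane or the membranes of organelles. The genes described here are those whose array probe sets (the groups of short oligonucleotides that report 1 transcript) carried exactly 1 gene symbol, beginning with Slc and a digit or with Slco. A set of 8 solute carrier genes (Slc10a1, Slco1a1, Slc11a2, Slc25a20, Slc30a1, Slc37a4, Slc40a1 and Slc4a1) was left out by the same rule. This gave 148 genes with 179 probe sets, out of 8252 named genes and 12488 probe sets on the array. Each gene was represented by its probe set with the highest mean. The rule is one of names, so it also takes in genes that are named for a solute carrier without being one, namely Slc9a3r1 and Slc9a3r2, which encode scaffold proteins that bind sodium/proton exchangers, and Slc4a1ap, an adaptor protein gene.

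In the liver these proteins feed and drain the hepatocyte. The facilitated glucose carrier GLUT2 lets glucose in after a meal and out during fasting, sodium-coupled amino acid carriers supply the urea cycle and gluconeogenesis, and fatty acid transport proteins trap incoming fatty acids as acyl-CoA. Mitochondrial carriers of the Slc25 family link the cytosol with the matrix, and metal carriers of the Slc11, Slc30, Slc31 and Slc39 families move zinc, copper, iron and manganese.

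Liver RNA came from 8 female Ames dwarf mice, homozygous for the df mutation, which leaves the pituitary without growth hormone, prolactin and thyroid stimulating hormone. All 8 were fed 30% less than dwarf females with free access to food and were killed at 24 to 26 months, and each liver was hybridised to its own Affymetrix U74Av2 array. They form 1 group, called mice 1 to 8 after the numbers in the labels. Neither freely fed dwarfs nor non-mutant animals were analysed here, so every comparison below is between individual livers.

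The deposited intensities were already scaled. Their mean, trimmed of 2% at each end, was 500.4, with a range over the arrays of 0.0140% of that mean, and all arrays correlated with each other between 0.917 and 0.962. Array medians lay between 157 and 177 in 7 mice and at 146 in mouse 5. The array of mouse 5 also stood apart in 2 of 3 controls that compare probes at the 3′ and 5′ ends of a transcript. Its 3′/5′ ratio was 2.67 for Gapdh, against 0.794 to 1.07 in the other 7 mice, and 40.7 for pyruvate carboxylase, against 2.64 to 9.17. For actin it was 1.60, inside the 1.45 to 2.0 of the others. Xist, the RNA of the inactive X chromosome and a check of the label female, read 95.8 in mouse 5, against 442 to 1572 in the other 7. Ranges of 2-fold or more that mouse 5 set are given with and without it.

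Of the 148 solute carrier genes, 83 had a mean intensity of at least 165.2, the median of all values, and were tested. The other 65 were too dim, and 23 of those had a mean below 37.2, the floor used before taking log2. By substrate the tested share differed. Of the metal transporter genes 11 of 14 were tested, of the mitochondrial carriers 14 of 19, of the vitamin, peptide, choline and heme transporters 8 of 11, of the amino acid transporters 11 of 23, of the inorganic ion transporters 10 of 22, of the organic anion and cation transporters 7 of 17, and of the fatty acid transport proteins 2 of 5. Passing the filter depends on each probe set's own brightness, so a dim gene is one not measured above this level and not one shown to be silent.

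Solute carrier transcripts varied between the livers about as much as other transcripts did. The median SD of the log2 intensity over the 8 mice was 0.23 for the 83 tested solute carrier genes and 0.23 for all 4869 tested genes. The highest value of the median solute carrier gene was 1.66 times its lowest, against 1.61 times for all genes. A range of 2-fold or more was found in 21 solute carrier genes (25.3%) and in 23.4% of all tested genes, and one of at most 1.5-fold in 29 (34.9%) and in 36.2%. Without mouse 5, a range of 2-fold or more was found in 16 (19.3%) and in 17.5%.

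Spread was tested by an F test of each variance against the variance that limma's trend expects at the same brightness. In it 0 of 83 solute carrier genes had an adjusted p under 0.05, as did 0 of 6265 probe sets (0%). The lowest adjusted p in this F test was 0.607 for a solute carrier gene and 0.265 over all probe sets. The F test called nothing, not even the interferon-induced gene Ubd with its 201-fold range, so its 0 cannot show that a gene varied little. At an unadjusted p under 0.05 there were 4 solute carrier genes (4.82%), which were Slc4a4, Slc7a7, Slc25a25 and Slc11a1, and 6.38% of all probe sets. A chi-square test, which takes the expected spread as known, marked 16 solute carrier genes (19.3%) and 18.3% of all probe sets. Both shares lay near those of all probe sets.

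**Figure D1:**
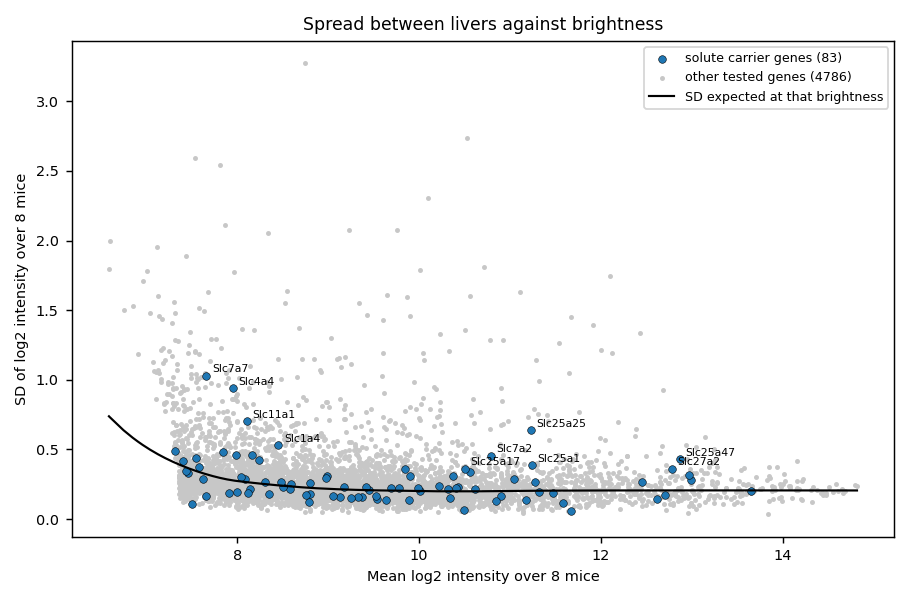
SD of the log2 intensity over the 8 mice (vertical axis) against the mean log2 intensity (horizontal axis) for 83 solute carrier genes (blue) and the other tested genes (grey), with the SD expected at each brightness as a line. Slc7a7 and Slc4a4 lie highest among the solute carrier genes, and most of the others lie close to the line.

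The mice did not share the extremes evenly. Mouse 6 had the lowest value of 26 solute carrier genes (31.3%), against 18.4% of all tested genes, and the highest of 7 (8.43%), against 16.2%. Mouse 5 had the highest value of 19 (22.9%) and the lowest of 19 (22.9%), against 20.8% and 21.0% of all genes. Mouse 1 had the highest value of 15 (18.1%), against 10.7% of all genes. These shares are descriptions, and their differences from those of all genes were not tested.

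**Figure D2:**
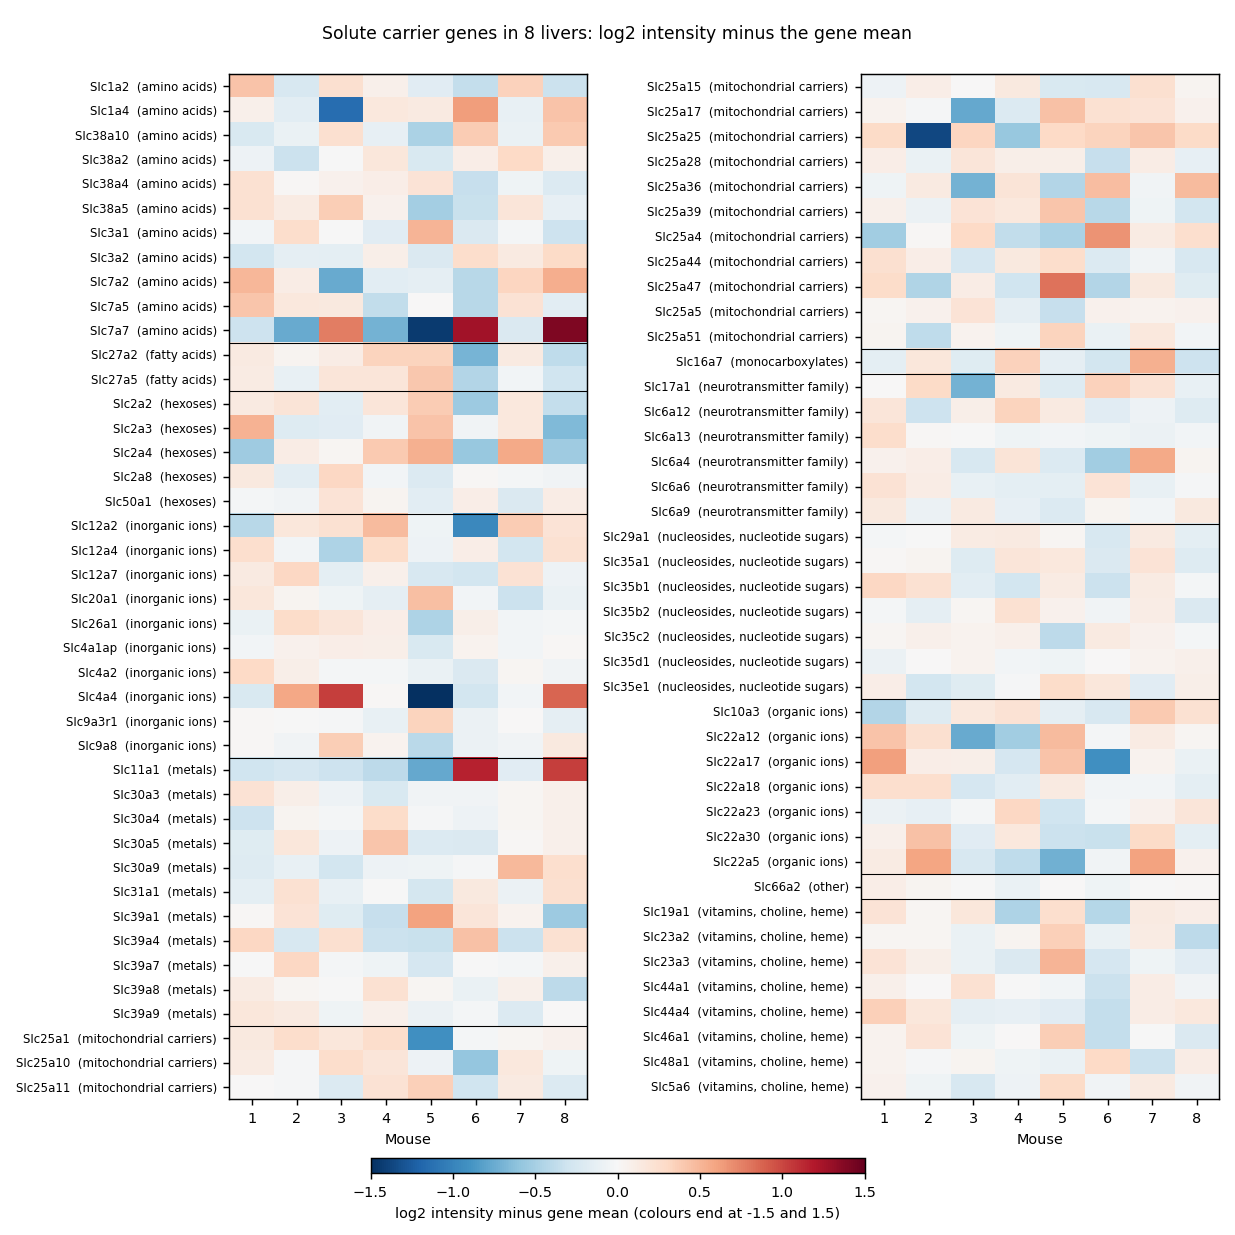
Log2 intensity relative to the mean of each gene, for the 83 tested solute carrier genes (rows, grouped by substrate) in mice 1 to 8 (columns), with red above and blue below the mean. Slc7a7 and Slc11a1 are above their means in mice 6 and 8, Slc4a4 is far below its mean in mouse 5, and Slc25a25 is lowest in mouse 2.

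Hexose transporters had 5 tested members of 9. Slc2a2 encodes GLUT2, the glucose carrier of hepatocytes. It averaged 8180 ± 1680 (SD, n = 8) and read 8810, 9184, 7160, 9100, 10426, 5502, 8980 and 6278 in mice 1 to 8. Mice 6 and 8 were lowest, mouse 3 lay next, and the other 5 mice formed the upper end. Slc2a4 encodes GLUT4, the insulin-responsive carrier of muscle and fat. It read 110, 172, 162, 208, 231, 108, 236 and 110 in mice 1 to 8, so that mice 1, 6 and 8 were lowest, on a probe set close to the filter value. Slc2a3, the GLUT3 gene, read between 121 in mouse 8 and 273 in mouse 1, with a median of 185, also close to the filter value. Slc50a1, a relative of the plant sugar exporters, was the steadiest of the group, from 638 in mouse 7 to 852 in mouse 3.

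The 2 tested fatty acid transport proteins moved together. Slc27a2 encodes FATP2, which is also a very long-chain acyl-CoA synthetase, and read 7762, 7232, 7594, 8899, 8860, 4326, 7706 and 5400 in mice 1 to 8. Slc27a5 encodes FATP5, which is also the enzyme that joins bile acids to coenzyme A, and read 8904, 7575, 9288, 9250, 10850, 6006, 7919 and 6624. In both genes mouse 6 was lowest and mouse 8 next. Highest over lowest was 2.06 for Slc27a2 and 1.81 for Slc27a5, which was 1.55 without mouse 5.

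Amino acid transporters had 11 tested members of 23, with ranges between 1.48-fold and 7.18-fold. Slc7a7 encodes y+LAT1, a light chain that exchanges cationic for neutral amino acids in epithelia and macrophages. It read 163, 119, 345, 124, 74.5, 483, 173 and 535 in mice 1 to 8, a 7.18-fold range, which was 4.48-fold without mouse 5. Mice 8, 6 and 3 lay above all others. Its heavy chain partner Slc3a2 read between 1117 in mouse 1 and 1651 in mouse 8, the narrowest range of the group at 1.48-fold. Slc1a4, a carrier of alanine, serine and cysteine, read 159 in mouse 3, below the 315 to 540 of the other 7. Slc7a2, which encodes the cationic amino acid carrier CAT2 that brings arginine to the liver, read 2502, 1912, 1049, 1587, 1609, 1323, 2214 and 2584. Mouse 3 was lowest in both genes, while the highest was mouse 6 for Slc1a4 and mouse 8 for Slc7a2. Slc38a4, a sodium-coupled neutral amino acid carrier with its main site in liver, averaged 12960 ± 1721 (SD, n = 8) and read from 10084 in mouse 6 to 15063 in mouse 1. Slc38a10, a less studied member of the same family, read 820, 896, 1134, 877, 690, 1245, 890 and 1260. Mice 3, 6 and 8 were again its highest.

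Mitochondrial carriers had 14 tested members of 19. Slc25a25 encodes an ATP-Mg/phosphate carrier that adjusts the adenine nucleotide pool of the matrix. It read 928 in mouse 2 and 1617 in mouse 4, against 2920 to 3204 in the other 6 mice, which differed little among themselves. Slc25a47, a carrier found mainly in hepatocytes, read 9063, 5472, 8103, 6100, 13196, 5535, 8302 and 6591 in mice 1 to 8. Its 2.41-fold range was 1.66-fold without mouse 5, the highest mouse.

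Slc25a17, the peroxisomal member of the family, read from 853 in mouse 3 to 1966 in mouse 5, with a median of 1515, a 2.30-fold range that was 1.99-fold without mouse 5. Slc25a1, the citrate carrier that exports citrate for fatty acid and sterol synthesis, read 1275 in mouse 5 and 2374 to 2909 in the others, so its 2.28-fold range was 1.23-fold without mouse 5. Slc25a11, the 2-oxoglutarate/malate carrier of the malate-aspartate shuttle, read 1380, 1365, 1195, 1601, 1763, 1121, 1517 and 1190. Mice 6, 8 and 3 were its lowest. Slc25a4, the ADP/ATP carrier of heart and muscle, read from 211 in mouse 1 to 481 in mouse 6, with a median of 316. The ornithine carrier of the urea cycle, Slc25a15, was the steadiest of the group, from 5652 in mouse 6 to 7894 in mouse 7.

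Among metal transporters, Slc11a1 had the widest range, 3.80-fold. It encodes NRAMP1, which pumps iron and manganese out of the phagosomes of macrophages. It read 224, 230, 221, 210, 161, 613, 244 and 566 in mice 1 to 8, so mice 6 and 8 lay far above the other 6, and without mouse 5 the range was 2.91-fold. Slc39a4 encodes ZIP4, the zinc importer known from the intestine. It read 1872, 1273, 1778, 1203, 1195, 2050, 1204 and 1761, with mice 6, 1, 3 and 8 above the other 4. Slc39a1, the zinc importer ZIP1, read from 632 in mouse 8 to 1398 in mouse 5, a 2.21-fold range that was 1.68-fold without mouse 5. Slc31a1, the copper importer CTR1, read from 2365 in mouse 5 to 3352 in mouse 8. Slc39a9, another zinc importer gene, was the steadiest, from 383 in mouse 7 to 497 in mouse 1.

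In the inorganic ion group, Slc4a4 had the widest range of all 83 genes, and 1 mouse set it. This gene of the sodium bicarbonate cotransporter NBCe1 read 212, 369, 506, 249, 63.2, 204, 240 and 453 in mice 1 to 8, an 8.01-fold range that was 2.48-fold without mouse 5. Slc12a2, the sodium-potassium-chloride cotransporter NKCC1, read from 117 in mouse 6 to 318 in mouse 4, with a median of 261. Slc9a8, a sodium/proton exchanger of the Golgi, read from 660 in mouse 5 to 1133 in mouse 3, and its 1.72-fold range was 1.38-fold without mouse 5. The scaffold gene Slc9a3r1 averaged 6301 ± 685 (SD, n = 8), and the adaptor gene Slc4a1ap ranged 1.25-fold, the narrowest of the group, and 1.10-fold without mouse 5.

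Among organic anion and cation transporters, 3 genes had the widest ranges. Slc22a17, the lipocalin-2 receptor gene, read from 151 in mouse 6 to 436 in mouse 1, a 2.89-fold range. Slc22a5, the carnitine carrier OCTN2, read 276, 382, 214, 194, 153, 244, 385 and 264, a 2.52-fold range that was 1.98-fold without mouse 5. Slc22a12, the urate exchanger URAT1, read from 110 in mouse 3 to 260 in mouse 5, a 2.35-fold range that was 2.27-fold without mouse 5. Its mean of 193 was close to the filter value. The low and high mice differed from gene to gene. Slc22a18, an orphan organic cation carrier of an imprinted region, ranged 1.41-fold between 2147 (mouse 3) and 3036 (mouse 1).

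In the neurotransmitter family, the probe set named for the serotonin carrier Slc6a4 ranged 2.13-fold (122 in mouse 6, 261 in mouse 7), and its f suffix marks probes shared within a family of transcripts. Slc17a1, a phosphate and urate carrier, ranged 2.08-fold, with 106 in mouse 3 and 220 in mouse 6. The means of Slc6a4 (180) and Slc17a1 (177) were close to the filter value. The betaine carrier Slc6a12 read from 664 in mouse 2 to 1044 in mouse 4. Slc6a13, the GABA and taurine carrier GAT2 of liver, read 2890 to 3118 in 7 mice and 3691 in mouse 1, while the glycine carrier Slc6a9 ranged 1.27-fold.

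Nucleoside and nucleotide sugar transporters had the lowest median SD of the groups with 2 or more tested members, 0.17 on the log2 scale over 7 genes. Slc35d1, which carries UDP-glucuronic acid into the endoplasmic reticulum, ranged 1.12-fold between 3077 (mouse 1) and 3447 (mouse 8), the narrowest range of all 83 genes. Slc35b1, an ATP/ADP exchanger of the endoplasmic reticulum, ranged 1.55-fold, and Slc35e1 and Slc35c2 ranged 1.46-fold and 1.44-fold. The range of Slc35c2 was 1.12-fold without mouse 5.

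Among vitamin transporters, the vitamin C carrier Slc23a2 read from 976 in mouse 8 to 1645 in mouse 5. Its relative Slc23a3 read from 374 in mouse 6 to 634 in mouse 5, on a probe set whose r suffix marks a reduced set of design rules. The folate carrier Slc46a1 read from 283 in mouse 6 to 471 in mouse 5. All 3 were highest in mouse 5, without which Slc23a2 ranged 1.43-fold, Slc23a3 1.38-fold and Slc46a1 1.48-fold. The biotin and pantothenate carrier Slc5a6 ranged 1.44-fold. Slc66a2, which is in no substrate group, ranged 1.15-fold, and the monocarboxylate carrier Slc16a7 (MCT2) read from 1067 in mouse 8 to 1914 in mouse 7.

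Some genes among the 65 dim ones still had single mice above the filter value, which was true of 16 of them. The following were chosen after their values were seen. Slc2a1, the widespread glucose carrier GLUT1, read 41.1, 93.3, 126, 137, 66.0, 293, 120 and 262 in mice 1 to 8, with mice 6 and 8 highest. Slc2a5, the fructose carrier, read 132, 38.7, 189, 302, 38.3, 32.1, 244 and 242, with mice 2, 5 and 6 near or below the floor. Slc51a, a subunit of the basolateral bile acid exporter, read from 97.7 in mouse 6 to 165 in mouse 1. Of the light chains that pair with Slc3a2, Slc7a11 averaged 17.0 and Slc7a6 14.5, both below the floor. These genes were not tested.

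A shared pattern between these livers is the level of interferon-induced genes, summarised as a score, the average log2 deviation of 22 tested genes from their own means. The score was -0.20, 0.05, 0.76, -1.38, -1.28, 1.97, -1.45 and 1.52 in mice 1 to 8. A matching score over 20 genes of fatty acid oxidation was 0.10, 0.14, -0.03, 0.31, 0.26, -0.59, 0.27 and -0.46. Mice 6 and 8 were highest in the first and lowest in the second, and the scores ran against each other (Pearson r = -0.951, exact permutation p = 0.000223, Spearman rho = -0.952, exact permutation p = 0.00114, n = 8). The adjusted p over the 3 pairs of scores compared were 0.000335 and 0.00171, and r without mice 6 and 8 was -0.970. The question was which solute carrier genes changed along these scores.

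With the interferon score, 7 of 83 solute carrier genes changed at an adjusted p under 0.05 (8.43%), against 7.92% of all tested probe sets outside the score. Of these, 4 were higher where the score was higher (4.82%, against 4.9%) and 3 were lower (3.61%, against 3.01%). With arrays scaled to a common median, which moved all values of mouse 5 by 0.18 and of mouse 8 by -0.10 on the log2 scale, 8 genes passed, 2 higher and 6 lower, and over the whole array 240 probe sets were higher and 339 lower. At an unadjusted p under 0.05 there were 18 (21.7%, against 23%). The median slope was -0.04 log2 units per unit of score, against -0.01 over all tested genes, and 51 of the 83 slopes were negative (61.4%, against 53.8%). The shares of calls lay close to those of the whole array. The p-values measure the spread between these mice.

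**Figure D3:**
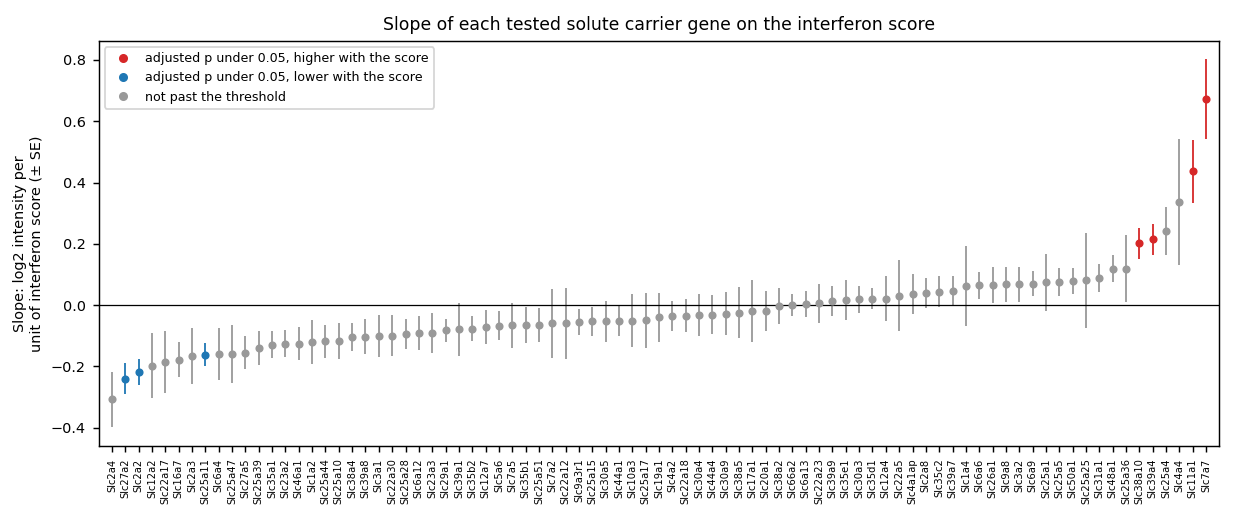
Slope of log2 intensity per unit of interferon score (vertical axis, ± SE, n = 8 mice) for each of the 83 tested solute carrier genes in order of slope. Slc7a7, Slc11a1, Slc39a4 and Slc38a10 (red) were higher and Slc2a2, Slc27a2 and Slc25a11 (blue) lower with the score at an adjusted p under 0.05.

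The genes that were higher with the interferon score carry amino acids and metals. Slc7a7 rose by 0.67 ± 0.13 log2 units per unit of score (SE, limma, adjusted p = 0.0117), and Slc11a1 by 0.44 ± 0.10 (SE, adjusted p = 0.0269). Slc39a4 rose by 0.21 ± 0.05 (SE, adjusted p = 0.0306) and Slc38a10 by 0.20 ± 0.05 (SE, adjusted p = 0.0323). In all 4 genes mouse 6 or mouse 8 was highest. Slc11a1 was nearly level over the other 6 mice, while Slc7a7 and Slc38a10 were also high in mouse 3, the third mouse by score. Slc7a7 passed the filter only through mice 3, 6 and 8, which were also highest by score. In the remaining mice it read 74.5 to 173.2, under the filter value in all but mouse 7. The low end of its slope therefore rests on dim values. Slc39a4 was high in mouse 1 as well, whose score was -0.20. Its other tested probe set did not run with the first (Pearson r = -0.189 over the 8 mice), and with the mean of both its slope was 0.09 (adjusted p = 0.255).

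The genes that were lower with the score carry glucose, fatty acids and 2-oxoglutarate. Slc2a2 fell by 0.22 ± 0.04 log2 units per unit of score (SE, limma, adjusted p = 0.0116), Slc27a2 by 0.24 ± 0.05 (adjusted p = 0.0148) and Slc25a11 by 0.16 ± 0.04 (adjusted p = 0.0253). Mouse 6 was lowest in each of them. The next genes did not pass. The slope of Slc2a4 was -0.31 (adjusted p = 0.0666), that of Slc16a7 -0.18 (0.0897), that of Slc25a4 0.24 (0.0923), that of Slc35a1, a CMP-sialic acid carrier gene, -0.13 (0.111) and that of Slc27a5 -0.15 (0.114).

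**Figure D4:**
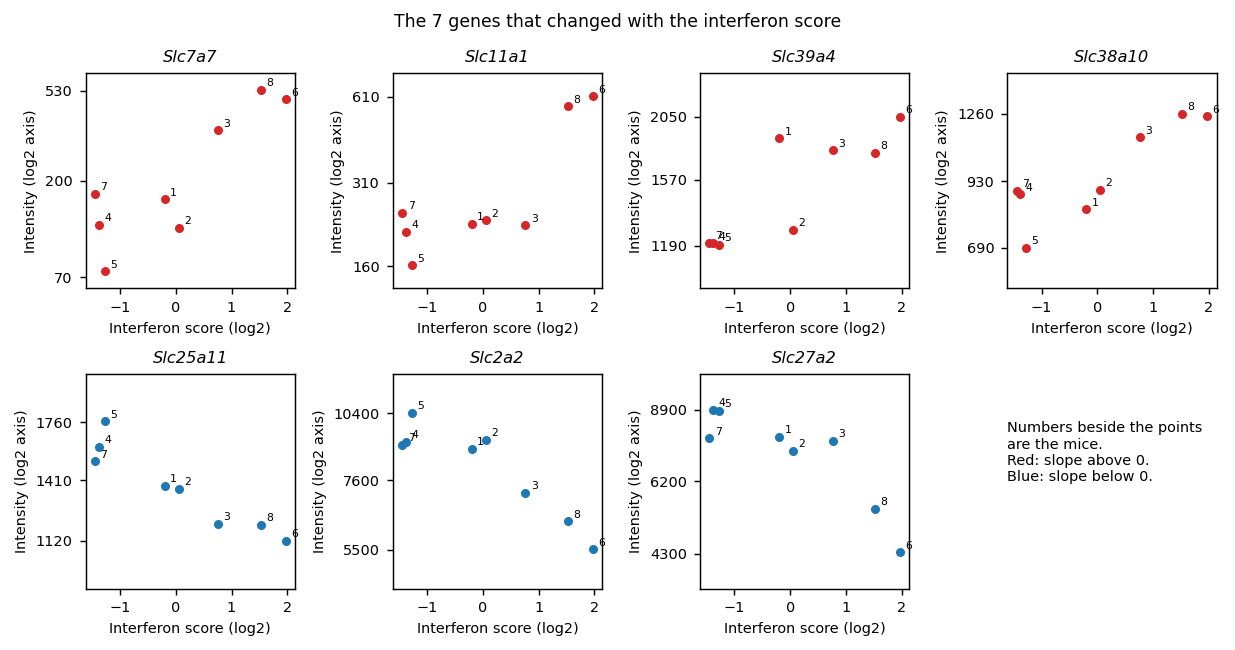
Intensity (vertical axis, log2 scale) against the interferon score (horizontal axis, log2 units) for the 7 solute carrier genes that changed with the score, each point 1 mouse with its number. Slc11a1 is high only in mice 6 and 8, whereas Slc2a2 and Slc25a11 step down from mice 4, 5 and 7 through mouse 3 to mouse 6.

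The calls depended on mice 6 and 8. Without mouse 6, 0 solute carrier genes passed in limma, and without mouse 8 likewise 0, among 128 and 210 probe sets that still passed. The slopes kept their sign. With each mouse left out in turn the slope of Slc7a7 lay between 0.59 and 0.80, that of Slc11a1 between 0.35 and 0.51, that of Slc2a2 between -0.24 and -0.19, and that of Slc27a2 between -0.28 and -0.18. Without mouse 5, 5 genes passed among 444 probe sets, and Slc11a1, Slc38a10 and Slc39a4 did not. Without mouse 4, 5 genes passed among 342 probe sets, and Slc25a11 and Slc39a4 did not. Slc39a4 did not pass without mouse 7 either (limma, adjusted p = 0.0705). With no filter on brightness 3 genes passed, all lower, among 269 probe sets (194 higher, 75 lower), and the 4 genes above that were higher and Slc27a2 did not pass.

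Markers of liver macrophages moved with the same score. Of 18 listed markers 16 had a named probe set, and 14 were bright enough to test, while Marco and Fcgr3 were too dim. Of the 14, 12 were higher with the interferon score, the exceptions being Clec4f and Msr1. One of the 12, Adgre1, passed the filter only through mice 6 and 8, the highest by score. It read 564 and 324 there and 29.3 to 182 in the others. The summed intensity of the 14 ran from 6864 in mouse 4 to 43805 in mouse 6. Of 9 tested hepatocyte markers 0 passed in either direction in limma, and their sum ran from 99377 in mouse 6 to 138950 in mouse 3. Of the tested stellate cell markers 2 of 6 were higher (Col1a1 and Col3a1), and of the endothelial markers 1 of 3 was lower (Kdr). Pdgfrb, Pecam1, Lyve1, Tek and Flt1 of these lists were too dim. Of the T and B cell markers 1 of 4 was higher, Ltb, which passed the filter only through mice 3, 6 and 8, the highest by score. Cd3d, Cd3e, Cd3g, Cd8a and Cd79b were too dim. Of the adipocyte markers 1 of 2 was lower, Car3, which read 6295 to 13104. Lep did not pass, and Adipoq and Retn were too dim, so a change in adipocytes cannot be read from Car3. The 2 tested cholangiocyte markers, Cd24a (slope 0.21, adjusted p = 0.103) and Anxa4 (0.14, adjusted p = 0.135), did not pass in limma. The other cholangiocyte markers with a probe set, Krt19, Krt7 and Epcam, were too dim to test, as were all 5 kidney markers with a probe set. The part of these cell types in the slopes of solute carrier genes was not tested. In RNA from whole liver, more or fewer cells of a type and more or less RNA per cell cannot be told apart.

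With the fatty acid oxidation score, 6 of 83 solute carrier genes passed (7.23%), against 9.55% of all tested probe sets outside the score. Slc27a2 (slope 1.01, adjusted p = 0.00169) and Slc2a2 (0.88, adjusted p = 0.0029) were higher where oxidation genes were higher, so 2 genes passed in this direction (2.41%, against 3.54%). Slc7a7 (-2.67, adjusted p = 0.00498), Slc11a1 (-1.91, adjusted p = 0.00166), Slc38a10 (-0.78, adjusted p = 0.0297) and Slc39a4 (-0.79, adjusted p = 0.0465) were lower, 4 genes in all (4.82%, against 6.01%). Slc7a7 passed the filter only through mice 3, 6 and 8, which were also lowest on this score. With the mean of its probe sets the slope of Slc39a4 was -0.33 (adjusted p = 0.298). Its call was lost in 11 of 16 alternative settings, and that of Slc38a10 in 5 of 16. All p-values are from limma. With arrays scaled to a common median 17 genes passed, 14 higher and 3 lower, and over the whole array 742 probe sets were higher and 304 lower. Without mouse 6, 2 genes passed, both lower, and over the whole array 59 probe sets were higher and 154 lower. These 6 genes were also among the 7 of the interferon score, which was measured in the same mice. With both scores in 1 model, 0 solute carrier genes passed for either of them, so the scores cannot be told apart here.

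Genes that work beside solute carriers were also set against the interferon score. From a list of 16 partners and other transporters 8 were tested, and 1 passed in limma, the water channel gene Aqp1, which fell by 0.69 ± 0.17 log2 units per unit of score (SE, adjusted p = 0.0426). Aqp1 read 337, 880, 335, 1034, 536, 238, 766 and 93.6 in mice 1 to 8, lowest in mice 8 and 6. The glycerol channel gene Aqp9 (slope -0.12, adjusted p = 0.138) and Bsg, which encodes a chaperone of monocarboxylate carriers (0.01, adjusted p = 0.927), did not pass. Of 8 tested regulators of transporter genes 0 passed. Among them Hnf4a, a master regulator of hepatocyte genes, read 266 in mouse 5 and 702 to 1308 in the other 7 mice. Ppara, which controls fatty acid oxidation genes, read from 344 in mouse 6 to 3038 in mouse 3.

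Promoter windows are shown for the genes with the steepest positive and negative slopes among those called, as these genes changed together with the scores. Windows of 300 bases around annotated starts (RefSeq, assembly GRCm38.p6) were found for 121 of the 148 genes. The printed windows belong to Slc7a7 (chr14:54417653-54417952, minus strand, 1 of its 5 windows), Slc11a1 (chr1:74374953-74375252, plus strand), Slc2a2 (chr3:28697653-28697952, plus strand) and Slc27a2 (chr2:126552774-126553073, plus strand). Capitals mark GAGGAAG, the core of the site bound by PU.1, a transcription factor of macrophages, in Slc7a7, and AGGTCA or its reverse complement, a short motif bound by many nuclear receptors, in the other 3.
Slc7a7: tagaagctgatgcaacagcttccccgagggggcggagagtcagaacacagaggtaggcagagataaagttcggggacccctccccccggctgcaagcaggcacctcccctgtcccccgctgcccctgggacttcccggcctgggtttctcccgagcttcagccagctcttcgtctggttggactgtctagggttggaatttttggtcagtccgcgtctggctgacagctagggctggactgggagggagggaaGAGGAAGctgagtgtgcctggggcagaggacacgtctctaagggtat
Slc11a1: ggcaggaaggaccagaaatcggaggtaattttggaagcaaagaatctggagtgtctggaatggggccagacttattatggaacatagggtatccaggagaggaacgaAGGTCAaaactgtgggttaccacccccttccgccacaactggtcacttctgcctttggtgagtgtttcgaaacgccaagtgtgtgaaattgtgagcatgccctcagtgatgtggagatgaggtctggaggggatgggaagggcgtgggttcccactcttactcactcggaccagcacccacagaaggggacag
Slc2a2: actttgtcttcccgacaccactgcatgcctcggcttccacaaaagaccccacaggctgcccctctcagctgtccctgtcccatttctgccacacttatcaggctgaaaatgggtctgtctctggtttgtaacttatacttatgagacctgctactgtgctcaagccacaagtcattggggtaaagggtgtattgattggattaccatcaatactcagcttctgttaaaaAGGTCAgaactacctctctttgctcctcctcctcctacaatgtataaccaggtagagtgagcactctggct
Slc27a2: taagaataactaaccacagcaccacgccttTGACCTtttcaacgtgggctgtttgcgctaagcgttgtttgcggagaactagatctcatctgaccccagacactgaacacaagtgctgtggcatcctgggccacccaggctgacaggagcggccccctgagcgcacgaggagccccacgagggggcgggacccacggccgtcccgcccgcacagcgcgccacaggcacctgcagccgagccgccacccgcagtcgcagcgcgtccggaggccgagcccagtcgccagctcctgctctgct

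A set of 7 motifs was searched on both strands of every window. GAGGAAG was in 3 of the 5 windows of Slc7a7, of which 2 overlap and share the site, and in the printed one it lay 3 bases after the start. It was in 13.6% of all 32851 windows, a share per window, and Slc7a7 had 5 of them. It was not in the windows of Slc11a1, Slc2a2 and Slc27a2. The Slc7a7 window at chr14:54417895-54418194, which is not printed, held none of the 7 motifs. AGGTCA lay at -143 in Slc11a1, -21 in Slc2a2, -220 in Slc27a2 and -38 in another window of Slc7a7 (bases from the start). The remaining windows of Slc7a7, the printed one among them, did not hold it. It was in 16.3% of all windows, a share per window and not per gene. The other motifs were TTCNNNGAA, the gamma-interferon activated site (8.3% of windows), GAAANNGAA, the core of the interferon-stimulated element (8.56%), GTTAAT for HNF1 (7.1%), CAAAGTCCA for HNF4 (0.475%) and TATAAA, the TATA box (13.6%). None of these was in the 4 printed windows, but GTTAAT was in another window of Slc7a7. The windows of Slc25a11 and Slc38a10, also called on the interferon score, held none of the 7 motifs. For Slc39a4, the remaining called gene, no window was found. A match describes letters, not binding.

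Pairs of genes whose products work together were compared over the 8 mice, 12 pairs with both genes tested out of 21 listed. Slc27a2 and Slc27a5 ran together (Pearson r = 0.917, exact two-sided permutation p = 0.000694, adjusted p = 0.00833, Spearman rho = 0.810, adjusted p = 0.131), with r = 0.775 without mice 6 and 8. This pair did not pass when mouse 6 alone or mouse 8 alone was left out. Slc11a1 and the macrophage gene Cd68 passed in Pearson's test as well (exact permutation p = 0.00355, adjusted p = 0.0213), but mice 6 and 8 lay apart from the rest in both genes. Among the other 6 mice r was 0.475, so that relation rests on mice 6 and 8. Cd68 read 1544 in mouse 6 and 940 in mouse 8, and 328 to 466 in the others.

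No other pair passed, which leaves 10 of the 12. The heavy chain Slc3a2 had r = -0.705 with its light chain Slc7a5 (exact permutation p = 0.0605, adjusted p = 0.190) and r = 0.643 with Slc7a7 (p = 0.0955, adjusted p = 0.191 in the same exact test), which was 0.0676 without mice 6 and 8. The ADP/ATP carriers Slc25a4 and Slc25a5 had r = 0.668 (exact permutation p = 0.0638, adjusted p = 0.190), which was 0.940 without mice 1 and 6. The f suffix of the Slc25a5 probe set marks probes that can be shared between relatives, and their part in this r was not tested. The 2 tested probe sets of Slc25a5 had r = 0.473 with each other, and -0.525 without mice 4 and 5. The ornithine carrier Slc25a15 and Otc, the next enzyme of the urea cycle, had r = 0.603 (exact permutation p = 0.118, adjusted p = 0.202). Slc25a1 and Acly, which cleaves the exported citrate, had r = -0.610 (exact permutation p = 0.0790, adjusted p = 0.190), and -0.0167 without mice 2 and 5. The remaining 5 pairs, Slc2a2 with G6pc, Slc22a5 with Ppara, Slc7a2 with Arg1, Slc1a2 with Glul and Bsg with Slc16a7, had r between -0.283 and 0.320.

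**Figure D5:**
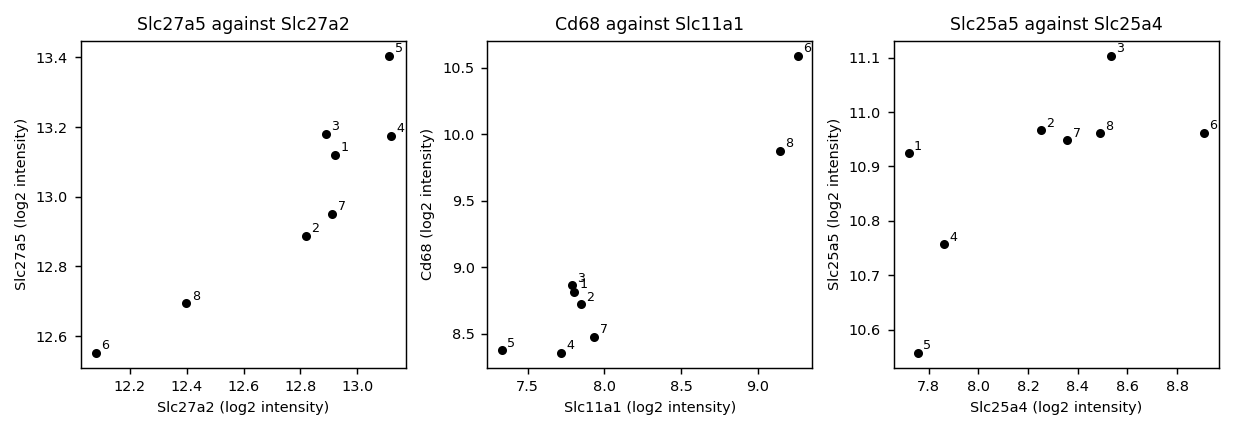
Log2 intensity of 3 pairs of genes in the 8 mice, each point 1 mouse with its number. Slc27a2 and Slc27a5 run together, with mice 6 and 8 lowest in both. Slc11a1 and Cd68 are set apart by mice 6 and 8, and Slc25a4 and Slc25a5 did not pass (exact permutation test, adjusted p = 0.190).

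A gene measured by 2 separate probe sets gives a check on how far a pattern belongs to the transcript. In the 10 solute carrier genes with 2 or more tested probe sets, the median Pearson r between the 2 with the highest means was 0.0974, and 5 of the 10 were below 0. In exact permutation tests 0 passed at an adjusted p under 0.05 and 1 had an unadjusted p under 0.05. That gene was Slc25a1 (r = 0.796, exact permutation p = 0.0251, adjusted p = 0.251, Spearman rho = 0.357), with r = 0.487 without mice 2 and 5. The next were Slc25a5 with r = 0.473 and Slc25a51, the mitochondrial NAD carrier gene, with r = 0.300. The lowest were Slc31a1 with r = -0.436, Slc35e1 with r = -0.417 and Slc39a4 with r = -0.189. The 2 probe sets of Slc31a1 ranged 1.42-fold and 1.15-fold. The second probe set was dim, with means of 169.8 to 244.4, in Slc6a6, Slc23a3, Slc19a1, Slc35e1, Slc25a5, Slc25a51 and Slc29a1. In Slc25a1, Slc39a4 and Slc31a1 its mean was 955.8 to 1842.1. The same correlations were not computed for all genes, so low agreement cannot be read as a trait of solute carriers. Slc7a7, Slc11a1, Slc2a2, Slc27a2, Slc25a11 and Slc38a10 had 1 tested probe set each, so that check does not reach them.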

How the data were processed

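Total RNA from 8 livers was hybridised to Affymetrix U74Av2 arrays, per the labels. The deposited table holds 1 linear intensity per probe set and array, already scaled between arrays by the authors, and 0 columns lacked a sample. How probes were summarised into 1 value was not given in the sources used here. Probe sets were named from the platform annotation, which gave 1 symbol for 10833, several for 396 and none for 1193, and named solute carrier probe sets with several symbols (1) were left out. All 148 genes matched a mouse gene list by Entrez identifier. The solute carrier genes, gene lists, pairs and tests were chosen with earlier results of these data known.

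Intensities were set to at least 37.2 (25th percentile), filtered at a mean of 165.2 and converted to log2, leaving 6265 probe sets, 4869 named genes among them. Control probe sets (66) were left out. None of the 664 tested values of solute carrier genes lay at the floor (0). Spread was tested with limma 3.58.1 (R 4.3.3) by a one-sided F test of each variance against its brightness trend. Slopes on each score were fitted with lmFit and eBayes (trend, robust, two-sided). All were adjusted by Benjamini-Hochberg at 0.05, the spread over all tested probe sets and the slopes over those outside the score. Pairs were tested with exact permutations over the 40320 pairings of the mice (scipy 1.17.1). The scripts were tested on simulated data. With 1 array per mouse, the number of arrays limits the precision, and p-values measure the spread between these mice.

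The text names, in each substrate group, the 3 tested genes with the widest range, the 1 with the narrowest and the 1 with the highest mean, the genes past the threshold on each score, the genes of tested pairs, and the 3 highest and 3 lowest correlations between 2 probe sets. Other genes were chosen after their values were seen, as were the 3′/5′ ratios and the values without mouse 5. Probe sets with the suffix f can share probes between relatives, which touches Slc25a5, Slc19a1 and Slc6a4. Other suffixes were r for Slc23a3, a reduced set of design rules, and i for Slc22a30 and Slc30a5. Alternatives were another floor, other filters, common-median and quantile scaling, and the mean of a gene's probe sets. Further ones were probe sets with suffixes of this kind left out, other scores and each mouse left out.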

Additional observations from a re-analysis of the deposited data

Results flagged for a closer look

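In 8 of the 83 tested solute carrier genes 1 mouse lay far from the other 7 (9.64%), with a gap to the nearest mouse above Dixon's critical share of the whole range for 8 values. The same was true of 8.69% of all tested genes, and chance gives about 1 in 20. Mouse 5, whose array stood apart in 2 of 3 control ratios, was the distant mouse in 5 of them (6.02%, against 4.44% of all genes). These were Slc25a1 (1275 in mouse 5, against 2374 to 2909 in the others), Slc35c2 (404 against 518 to 579), Slc4a1ap (155 against 176 to 194), Slc4a4 (63.2 against 204 to 506) and Slc9a3r1 (7893 against 5736 to 6365). Slc1a4 read 159 in mouse 3, against 315 to 540 in the others. The mitochondrial dicarboxylate carrier Slc25a10 read 1666 in mouse 6, against 2364 to 2987, and Slc6a13 read 3691 in mouse 1, against 2890 to 3118. Whether the array of mouse 5 accounts for its values was not tested.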

How the results depend on the processing

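The count of genes past the F test of spread was 0 under every setting of that test. As it called 0 of 6265 probe sets in the main setting, this does not mark a stable result. The chi-square test marked 1147 probe sets and 16 solute carrier genes. With no filter on brightness, 269 probe sets and 3 solute carrier genes passed on the interferon score, and Slc7a7, Slc11a1, Slc38a10, Slc39a4 and Slc27a2 did not (adjusted p = 0.0885, 0.123, 0.0882, 0.112 and 0.0685 in limma). Under common-median scaling the fatty acid oxidation score gave 1046 probe sets (70.9% of them higher, against 37.1% as deposited) and 17 solute carrier genes, the interferon score gave 579 probe sets (41.5% higher, against 61.9%), and 1 pair passed. With the fatty acid oxidation score as a second covariate, 2 probe sets and 0 solute carrier genes passed on the interferon score, and the slopes of Slc27a2 and Slc11a1 turned to 0.0696 and -0.346. The converse model gave 0 probe sets and 0 solute carrier genes in limma, and the oxidation slope of Slc39a4 turned to 0.0332. The 2 scores had r = -0.951 with each other, and the cause of the other changes was not tested.

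With each mouse left out in turn, 0 to 8 solute carrier genes (128 to 499 probe sets) passed on the interferon score, 2 to 8 (213 to 651 probe sets) on the oxidation score, and 0 to 2 pairs, with 0 without mouse 6 and without mouse 8 and 1 without mouse 5. With the macrophage score in place of the interferon score 5 solute carrier genes and 502 probe sets passed, with Slc39a4, Slc38a10 and Slc25a11 outside the threshold. Among the slopes and pairs of single genes, 256 alternatives kept the direction and the side of the threshold, 63 kept the direction only and 12 reversed. Apart from the 3 given above, the reversed ones were correlations between partner genes that did not pass the test. The 256 include alternatives of pairs that never passed, so they do not count calls kept. Called genes kept their interferon call in 7 of 17 alternatives (Slc39a4) to 14 of 17 (Slc2a2). Oxidation calls were kept in 5 of 16 (Slc39a4) to 14 of 15 (Slc7a7 and Slc11a1). The called pairs kept theirs in 6 of 10 (Slc11a1 with Cd68) and 8 of 10 (Slc27a2 with Slc27a5). The r of Bsg with Slc16a7 was 0.184 under common-median scaling and -0.310 to 0.305 with 1 mouse left out (above 0 without mouse 1, 3 or 7). That of Slc1a2 with Glul was -0.0775 to 0.346 with 1 mouse left out (below 0 without mouse 1 or 3). That of Slc7a2 with Arg1 was 0.295 under quantile normalization and -0.609 to 0.142 with 1 mouse left out (above 0 without mouse 3 or 8). No paired analysis was possible because the 8 mice form 1 group. Means near the filter value of 165.2, as for Slc2a4, Slc2a3, Slc17a1, Slc6a4 and Slc22a12, leave little signal over background, and the number of arrays limits every call.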
